A study of Mus musculus with 33 samples.

Results

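Sites at which Oct4 was listed in wild type (WT) E14 mouse embryonic stem cells (mESC), but at which Sox2 and Nanog were listed in its place in Uhrf1 knockout (KO) mESC, were examined by ChIP-seq, in which an antibody pulls down chromatin holding a chosen protein or mark and the attached DNA is sequenced. A site was chosen on the measured positions of summits, the points of highest read coverage in called peaks. It was a WT Oct4 summit with no KO Oct4 summit within 100 bp and with both a KO Sox2 and a KO Nanog summit within 100 bp, neither of which had a WT summit of its own factor within 100 bp. Of 12898 WT Oct4 sites, 1301 were chosen (10.1%, Wilson 95% interval 9.58 to 10.6). The first step of the rule removed few sites, since 98.1% of all WT Oct4 sites had no KO Oct4 summit within 100 bp.

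The series held 33 samples of WT or Uhrf1 KO cells, either undifferentiated mESC or embryoid bodies (EBs), clusters of differentiating stem cells, at weeks 1, 2 and 3. The mESC of both genotypes were grown undifferentiated with leukemia inhibitory factor and carried no other stated change. The KO cells were a line received from another laboratory, and the number of clones is not given in the sources used here. Each antibody, genotype and stage was represented by 1 library. The spread between replicates is therefore unknown, and no p-value is given. Intervals are 95% intervals and cover counting error over sites only, while sites are not replicates of a genotype.

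Oct4 (encoded by Pou5f1), Sox2 and Nanog are transcription factors that maintain pluripotency and bind many enhancers together. Oct4 has a POU domain that recognises an octamer, Sox2 has an HMG box that recognises a short element centred on TTGT, and the pair often bind a composite element in which both lie side by side. Nanog is a homeodomain protein. Uhrf1 binds hemimethylated DNA and methylated H3K9 and brings the maintenance methyltransferase Dnmt1 to newly replicated DNA. H3K4me3 marks active and poised promoters, H3K27me3 is deposited by Polycomb complexes, and H3K9me3 marks repressed chromatin.

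The sequences shown first are those around chosen sites nearest to genes of the pluripotency network, since they let the motif content be read beside the heights. Each is the 101 bp centred on the WT Oct4 summit, from the + strand of the NCBIM37 (mm9) reference. Capitals mark an octamer-type motif (ATGCAAA) or a Sox-type motif (CNTTGT) on either strand, and a composite (the Sox-type motif, 1 base and the octamer-type motif) with up to 2 of its 12 fixed letters different, whose letters run together with a motif inside it.
Utf1 site, chr7:147131538-147131638: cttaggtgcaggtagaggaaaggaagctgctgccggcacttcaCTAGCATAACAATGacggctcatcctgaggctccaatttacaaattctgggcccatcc
Zfp42 site, chr8:44392501-44392601: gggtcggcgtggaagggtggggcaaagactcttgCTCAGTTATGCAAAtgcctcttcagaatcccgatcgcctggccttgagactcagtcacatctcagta
Klf5 site, chr14:99753421-99753521: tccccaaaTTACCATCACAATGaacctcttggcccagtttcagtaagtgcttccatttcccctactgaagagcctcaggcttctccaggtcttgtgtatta
Esrrb site, chr12:87807293-87807393: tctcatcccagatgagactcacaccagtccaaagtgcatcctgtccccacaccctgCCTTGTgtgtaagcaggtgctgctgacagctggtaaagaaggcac
Dppa5a site, chr9:78217309-78217409: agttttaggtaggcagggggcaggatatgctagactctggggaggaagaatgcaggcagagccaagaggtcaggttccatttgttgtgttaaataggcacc

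The second set holds the sites that were tall for all 3 factors, with the same capitals.
Tmem220 site, chr11:66837624-66837724: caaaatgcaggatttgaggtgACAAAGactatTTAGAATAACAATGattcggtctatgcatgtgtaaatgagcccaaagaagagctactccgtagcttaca
Ifitm1 site, chr7:148148853-148148953: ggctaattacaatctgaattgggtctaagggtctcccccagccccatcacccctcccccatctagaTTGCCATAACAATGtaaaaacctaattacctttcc
Etv6 site, chr6:133937298-133937398: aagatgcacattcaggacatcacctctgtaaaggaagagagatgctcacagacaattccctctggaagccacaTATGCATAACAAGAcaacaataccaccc
Gm17438 site, chr11:30077290-30077390: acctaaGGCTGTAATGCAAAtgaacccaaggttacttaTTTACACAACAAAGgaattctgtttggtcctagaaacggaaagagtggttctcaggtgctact
Tubb2b site, chr13:34201694-34201794: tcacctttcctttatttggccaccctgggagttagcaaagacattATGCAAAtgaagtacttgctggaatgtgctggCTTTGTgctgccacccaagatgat
Arl4c site, chr1:90565545-90565645: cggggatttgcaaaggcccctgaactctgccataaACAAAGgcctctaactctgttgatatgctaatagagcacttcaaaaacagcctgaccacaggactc

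The Utf1 site carried a composite-like stretch centred at -0.5 bp from the WT Oct4 summit, counted along the + strand. At the Zfp42 site the octamer-type motif was centred at -6 bp, and at the Tubb2b site at -2 bp. The Dppa5a site held neither motif in this window, and the Arl4c and Esrrb sites each held a single Sox-type match. Sites without a motif were common. Of the 13 chosen sites nearest to core or naive pluripotency genes, 1 held the octamer-type motif and 4 the Sox-type motif. Over all chosen sites, 53.6% held at least 1 of the 2.

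At the chosen sites the WT Oct4 summit held 17 to 141 reads with a median of 45, against a median of 37 over all WT Oct4 sites. The KO Sox2 summit held 11 to 104 reads with a median of 27, which stood at a median percentile of 76.9 within the KO Sox2 list. The KO Nanog summit held 6 to 68 reads with a median of 13, at a median percentile of 56.2 of its list. So the sites were mostly tall among KO Sox2 summits and near the middle among KO Nanog summits. The sources used here do not state whether reads at a summit were scaled to mapped reads, and therefore heights were ranked within a list and not compared between libraries. These values chose the sites and are a description.

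Chosen sites were rare among short Oct4 summits. When all WT Oct4 sites were split by height into 5 equal groups, the share chosen was 2.33% in the shortest group (11 to 25 reads), 6.44% and 12.4% in the next groups, 16.2% in the fourth and 13.1% in the tallest (58 to 168 reads). Median WT Oct4 height was 29 reads at the 6184 lost sites with no KO Sox2 or Nanog summit within 100 bp, 38 at the 2045 sites replaced by Sox2 alone and 47.5 at the 1318 sites replaced by Nanog alone. It was 60 at the 1806 lost sites where Sox2 or Nanog was listed in both genotypes, and 97.5 at the 244 sites that kept Oct4.

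**Figure D1:**
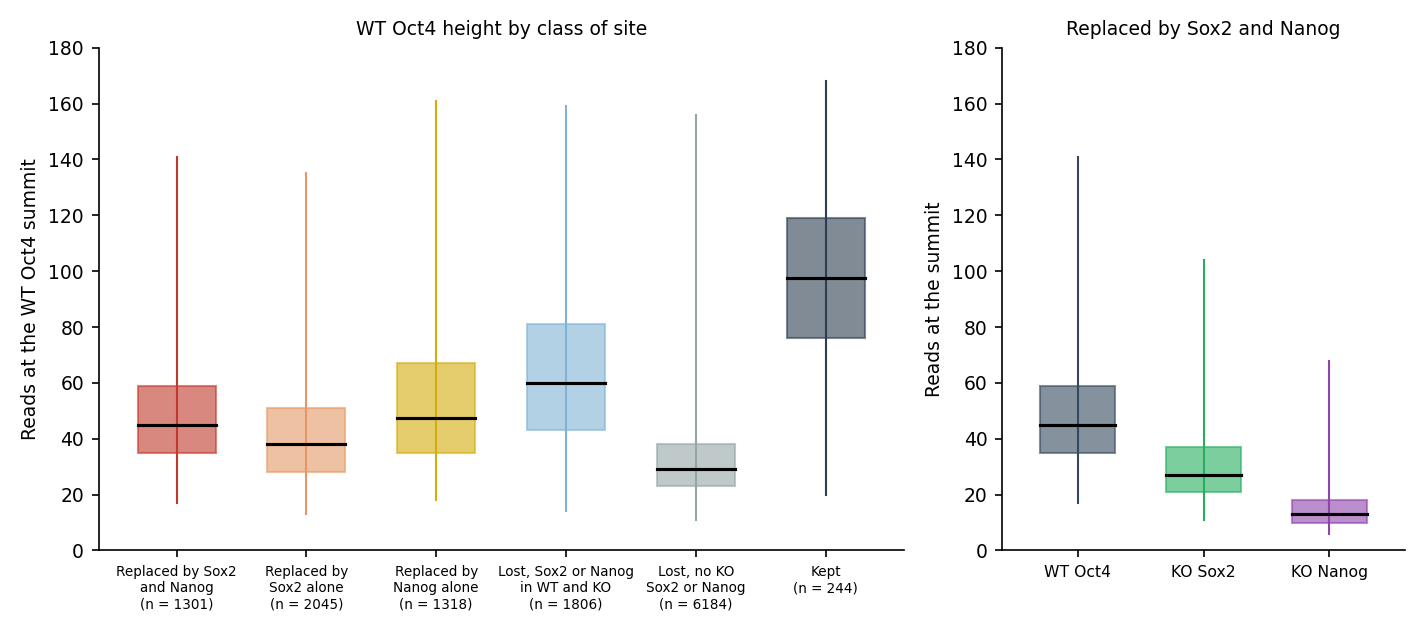
Left, reads at the WT Oct4 summit (linear axis) for 6 classes of WT Oct4 site; right, reads at the WT Oct4, KO Sox2 and KO Nanog summits of the 1301 chosen sites. Boxes span the quartiles, black lines are medians and vertical lines reach the lowest and highest site; the chosen sites, with a median of 45 reads, stand between lost sites without a KO Sox2 or Nanog summit (29) and sites that kept Oct4 (97.5).

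The rule kept both KO summits within 100 bp of the Oct4 summit, so their distances are a description. The median distance from the WT Oct4 summit was 26 bp for KO Sox2 and 28 bp for KO Nanog, and the median distance between the KO Sox2 and the KO Nanog summit was 30 bp. Distances at sites replaced by a single factor were similar, with medians of 28 bp for Sox2 alone and 29 bp for Nanog alone. The KO Sox2 summit was within 25 bp at 642 sites (49.3%) and the KO Nanog summit at 607 (46.7%). All 3 summits fell within 50 bp of one another at 686 sites (52.7%) and within 20 bp at 183. Each site had its own KO Sox2 summit and its own KO Nanog summit, with 1301 distinct summits of each.

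**Figure D2:**
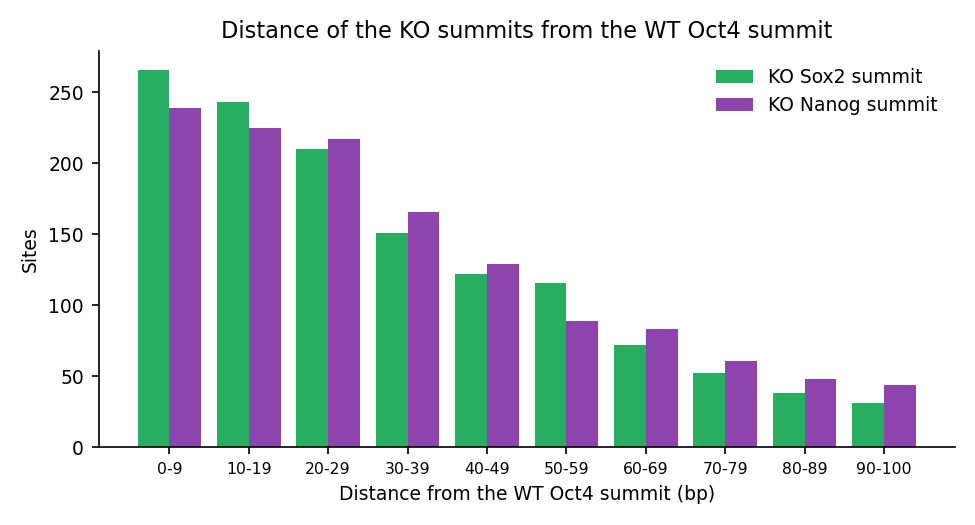
Number of chosen sites (vertical axis) by distance in bp between the WT Oct4 summit and its KO Sox2 or KO Nanog summit, in bins of 10 bp up to the limit of the rule. The nearest bin holds 266 sites for Sox2 and 239 for Nanog, and the farthest 31 and 44.

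At the limit of the rule, 6 chosen sites had their farther KO summit at exactly 100 bp. The tallest of these, in an intron of Arl15 on chromosome 13, held 62 reads for WT Oct4, 41 for KO Sox2 at 88 bp and 16 for KO Nanog at 100 bp. A further 9 sites missed the rule by 1 bp. Of those the tallest, in an intron of Sulf1 on chromosome 1, held 83 reads for WT Oct4, 23 for KO Sox2 at 36 bp and 12 for KO Nanog at 101 bp.

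The name of the class was set beside the other lists. Sox2 was not wholly missing from the WT list around these sites: 22 of them (1.69%) had a WT Sox2 summit within 100 bp of the Oct4 summit, though not of the KO Sox2 summit, and 74 (5.69%) had one within 1000 bp. For Nanog the numbers were 7 (0.538%) and 25 (1.92%). A KO Oct4 summit lay within 1000 bp of 2 sites. The rule excluded KO Oct4 summits within 100 bp and WT summits of the same factor within 100 bp of the KO ones. Low counts close to the sites therefore follow in part from the rule and are no test of the name. The same shares over all WT Oct4 sites are not given here. The KO lists of Sox2 and Nanog were longer than those of WT, with 20755 against 5190 summits and 10632 against 2390, while the KO Oct4 list was shorter, with 576 summits against 12898, and the class depended on these lengths. When the KO Sox2 and KO Nanog lists were shortened to about the WT length by keeping their tallest summits, ties included (5498 for Sox2 and 2460 for Nanog), 214 sites remained in the class by the same rule. The name therefore states which summits were listed, and absence from a list is not absence of binding. Seen from the KO side, by a rule that did not ask for Nanog within 100 bp of the Oct4 summit or for loss of Oct4, 3382 KO-specific Sox2 summits had a KO-specific Nanog summit within 100 bp, and 1330 of them (39.3%) had a WT Oct4 summit within 100 bp. The share over all KO Sox2 summits is not given here, so this one is a description and cannot be called high or low.

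Like WT Oct4 sites as a whole, the chosen sites were mostly far from promoters. Of the 1301 sites, 53 lay within 1 kb of the start of a protein-coding transcript (4.07%, 3.13 to 5.29), where the share over all WT Oct4 sites was 7.64%. The difference from the other WT Oct4 sites was -3.96 points (Newcombe interval -5.04 to -2.65) and -2.44 points (-3.62 to -1.26) within groups of equal Oct4 height. At a limit of 2 kb it was -2.35 points (-3.90 to -0.576), but within height groups its interval included 0 (-1.02 points, -2.69 to 0.640). Sites replaced by Sox2 alone were nearer to promoters, with 12.3% within 1 kb, while for those replaced by Nanog alone the interval of the difference included 0 (5.01%, difference -0.934 points, -2.55 to 0.674). The median distance from a chosen site to the nearest start was 27143 bp, against 31991 bp over all WT Oct4 sites. It was 44098.5 bp at lost sites without KO Sox2 or Nanog. By this measure the chosen sites were not farther from starts than WT Oct4 sites as a whole. Between 5000 and 50000 bp from a start lay 50.8% of the chosen sites, and farther away lay 32.3%. These 2 shares over all WT Oct4 sites are not given here.

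By annotation, 64.4% of the sites were intergenic, against 64.7% of all WT Oct4 sites, and 34.4% were intronic, against 31.9%. Exons held 1.23%, against 3.36%, a difference of -2.37 points from the other sites (-2.96 to -1.55). The sequence was also poorer in G and C, with a median of 46.5% in the 101 bp window against 49.5% over all WT Oct4 sites and 52.5% at lost sites without KO Sox2 or Nanog. The median was 47.5% at sites replaced by Nanog alone and 50.5% at those replaced by Sox2 alone. It was 48.5% at lost sites with Sox2 or Nanog in both genotypes and 48.5% at sites that kept Oct4. By chromosome, the share of WT Oct4 sites that were chosen ran from 6.44% on chromosome 8 (4.95 to 8.35) to 13.5% on chromosome 14 (11.04 to 16.5). None of the 156 WT Oct4 sites on unplaced sequence of chromosome Y was chosen.

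The 10 sites that were tallest in all 3 lists were named by the lowest of their 3 height percentiles. The first was intergenic on chromosome 11, 357653 bp from the start of Gm17624, with 88 reads for WT Oct4, 69 for KO Sox2 and 46 for KO Nanog. Next was a site 33201 bp from Arl4c, a small GTPase of the Arf family, with 107, 77 and 37 reads in the same order. A site 982 bp from the start of Tmem220, which encodes a membrane protein, held 95, 73 and 37 reads. An exon of Dpm1, a subunit of dolichol-phosphate mannose synthase, held the fourth, with 84, 73 and 43 reads and all 3 summits within 16 bp. That site was nearest to the start of Adnp, a homeobox zinc finger gene. These 4 were high in all 3 libraries, at or above the 93rd percentile of each list.

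The site near Etv6, an ETS repressor, held 84, 57 and 43 reads. A site 4217 bp from Ifitm1, an interferon-induced membrane protein, held 86, 68 and 34 reads. An intron of Trim2 held a site with 79, 59 and 36 reads, and a site 20479 bp from Tubb2b, a beta-tubulin, held 76, 60 and 29. The last of the 10 was in an intron of Spnb2, a beta-spectrin, with 104, 87 and 28 reads. Of these 10, 8 lay in a WT mESC H3K4me3 domain and 6 in a KO one, where 38.0% and 29.8% of all WT Oct4 sites did. None lay in a WT mESC H3K27me3 domain (30.9% of all sites) or a Uhrf1 region (11.0%), and 9 lay in a KO H3K9me3 domain (53.2%). With 10 sites these counts are a description.

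Genes of the pluripotency network were nearest to 13 of the sites, spread over 9 genes. Utf1, a chromatin-associated factor of undifferentiated cells, had the tallest of them, 1833 bp from its start, with 100 reads for WT Oct4, 61 for KO Sox2 and 26 for KO Nanog. Zfp42, also called Rex1 and a marker of the naive state, had a site 188 bp from its start with 74, 27 and 10 reads. Dppa5a, an RNA-binding protein of pluripotent cells, had 2 sites. The one at 1375 bp held 80, 66 and 13 reads with both KO summits 1 bp from the Oct4 summit, and the one at 3411 bp held 59, 26 and 19. Within its own list the KO Sox2 summit stood at percentile 95.9 at the nearer Dppa5a site and 75.2 at the farther one, and the KO Nanog summit at 56.2 and 76.9.

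Etv5, an ETS factor that responds to FGF signalling, had 3 sites, of which the tallest for Oct4 was intronic with 48, 21 and 11 reads. Klf5, a Krüppel-like factor of self-renewal, had 2, with 59, 26 and 11 reads and 49, 26 and 7 reads. Esrrb, an orphan nuclear receptor, had an intronic site, which was short for Oct4 (22 reads) and taller for its list in KO Sox2 (25) and KO Nanog (22). Dppa2 and Sox2 itself had 1 each, the Sox2 one at 137178 bp with 36, 21 and 9 reads. Of the 13 sites, 9 lay in a WT mESC H3K4me3 domain and the same 9 in a KO one. A WT mESC H3K27me3 domain held 1 and a KO mESC H3K9me3 domain held 10. The shares over all WT Oct4 sites were those given for the 10 tallest. A WT mESC H3K9me3 domain held 1, where 41.6% of all WT Oct4 sites lay in one.

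By nearest gene, the interval of the chosen share held the 10.1% of all sites in each of 8 gene lists. Naive pluripotency genes were nearest to 112 WT Oct4 sites, of which 12 were chosen (10.7%, 6.24 to 17.8). Oct4, Sox2 and Nanog themselves were nearest to 21 WT Oct4 sites and 1 chosen site. In the list of chromatin and DNA methylation genes 4 of 44 sites were chosen, near Tet1 (2 sites), which oxidises methylcytosine, and near Jarid2 and Eed of Polycomb repressive complex PRC2. Among signalling genes 3 of 59 were chosen, near Spry2 and Bmp4. The formative list had 2 of 32, near Otx2 and Lef1, the neuroectoderm list 2 of 23, near Six3 and Rax, and the mesoderm and endoderm list 1 of 24, near T (Brachyury). None of the 5 WT Oct4 sites nearest to 2-cell stage genes was chosen, with an upper Wilson limit of 43.4%.

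Most of the 1151 nearest genes had a single chosen site (1030 genes), 100 had 2, 16 had 3 and 5 had at least 4. Etl4 had 6 chosen among its 13 WT Oct4 sites, between positions 20131088 and 20659613 of chromosome 2. For Gm1631 it was 4 of 6, for Etv6 4 of 7, for Spred2, an inhibitor of Ras signalling, 4 of 12, and for Tbl1xr1, a part of the NCoR corepressor complex, 4 of 23. At the sites of these genes the KO Sox2 summit ranged from 14 to 78 reads and the KO Nanog summit from 6 to 43. Within 10 kb of another chosen site lay 88 of the 1301, and 2 were within 1000 bp.

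Motifs were sought on both strands within 50 bp of the WT Oct4 summit, in the 1300 chosen sites and 12691 WT Oct4 sites with reference sequence. The octamer-type motif was found at 274 chosen sites (21.1%, 18.9 to 23.4), where 13.0% of all WT Oct4 sites held it. The difference from the other WT Oct4 sites was 9.01 points (6.79 to 11.4), and it was 5.78 points (3.44 to 8.11) within groups of equal Oct4 height. The Sox-type motif was found at 501 (38.5%), where 24.8% of all sites held it, a difference of 15.3 points (12.5 to 18.04) and 11.4 (8.61 to 14.2) within height groups. At least 1 of the 2 motifs stood at 53.6% of the chosen sites and both at 6%. A homeodomain-type motif (TAATGG) stood at 8.08%, against 4.37% of all sites, a difference of 4.13 points (2.72 to 5.77). A match shows that these letters are present and not that a factor is bound there. The rule asked for a KO Sox2 and a KO Nanog summit at each chosen site, while 6184 of the other sites were lost sites with neither. Higher shares of Sox-type and homeodomain-type motifs may therefore follow in part from the rule and are no test of the name. The same limit holds for the comparisons with single classes below. Sites were not matched for G and C content, and its part in the motif differences was not tested.

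The Sox-type difference was widest at the shortest Oct4 summits. In the shortest height group it was present at 51.7% of 60 chosen sites and 11.4% of 2490 others, and in the tallest group at 35.6% of 337 and 30.5% of 2231. The octamer-type motif went the other way in level, with 5% of chosen sites in the shortest group and 23.7% in the tallest, against 2.89% and 19.99% of other sites. The Esrrb-type motif (AAGGTCA) stood at 5.77% of chosen sites and 4.38% of all sites, and the Klf-type motif (GGGNGTGG) at 5.54% and 6.28%. Within height groups the intervals of both differences included 0.

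An exact composite was rare, at 5 chosen sites (0.385%) against 0.260% of all sites. With up to 2 letters different, a setting chosen after the data were seen, it stood at 280 chosen sites (21.5%) against 15.5% of all sites. That difference was 6.78 points from the other sites (4.53 to 9.18) and 2.45 (0.0855 to 4.82) within height groups. At sites replaced by Nanog alone it stood at 21.9%, and the interval of the difference included 0 (-0.320 points, -3.48 to 2.84). The overlap of the composite with the single motifs was not removed.

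Octamer-type matches were concentrated around the summits. In the central 20 bp around the WT Oct4 summit there were 8.15 octamer-type matches per 100 chosen sites, against 0.385 and 0.0769 in the bins 180 bp to either side. Around the KO Sox2 and KO Nanog summits the central bin held 5.15 and 4.69. For the Sox-type motif the central bin held 13.5 matches per 100 sites at the KO Sox2 summit, 11.8 at the KO Nanog summit and 11.6 at the WT Oct4 summit. The Sox-type profile was broad, with 9.23 and 8.92 matches per 100 sites still found 100 bp to either side of the WT Oct4 summit. The homeodomain-type motif had 2.77 at the KO Nanog summit, 1.62 at the KO Sox2 summit and 2 at the WT Oct4 summit, and around KO Sox2 its highest bin was not the central one but that at -20 bp (2.46). Compared over the central bins alone, the octamer-type motif was most frequent at Oct4 (106 matches), the Sox-type at Sox2 (175) and the homeodomain-type at Nanog (36). These counts come from overlapping windows of the same sites and were not tested.

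**Figure D3:**
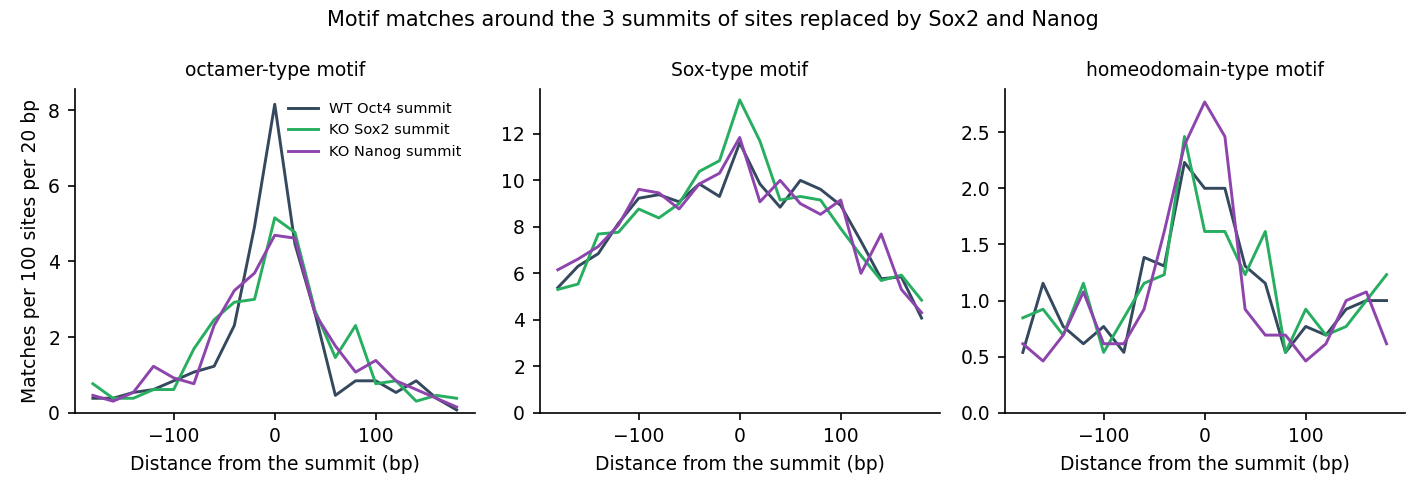
Motif matches per 100 chosen sites in bins of 20 bp (vertical axes differ between panels) against distance in bp from the WT Oct4, KO Sox2 or KO Nanog summit of the same sites. Octamer-type matches peak at the WT Oct4 summit (8.15 per 100 sites), Sox-type matches at the KO Sox2 summit (13.5) and homeodomain-type matches at the KO Nanog summit (2.77).

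Set beside the neighbouring classes, the chosen sites held the octamer-, Sox- and homeodomain-type motifs more often than those replaced by a single factor. The octamer-type motif exceeded sites replaced by Sox2 alone (14.04%) by 7.04 points (4.39 to 9.75), or 4.204 points (1.34 to 7.06) within height groups, and sites replaced by Nanog alone (17.3%) by 3.79 points (0.769 to 6.80). For the Sox-type motif the differences were 11.9 points (8.67 to 15.2) and 4.11 points (0.422 to 7.79), and for the homeodomain-type motif 3.81 points (2.14 to 5.60) and 2.44 points (0.502 to 4.40). This did not extend to the Esrrb-type motif, at 5.77% against 5.01% for Sox2 alone and 7.16% for Nanog alone, or to the Klf-type motif, at 5.54% against 6.33% and 6.85%, where the intervals of all 4 differences included 0. Against lost sites with no KO Sox2 or Nanog summit the octamer-type difference was 10.98 points, of which 3.42 points (0.704 to 6.14) remained within height groups.

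**Figure D4:**
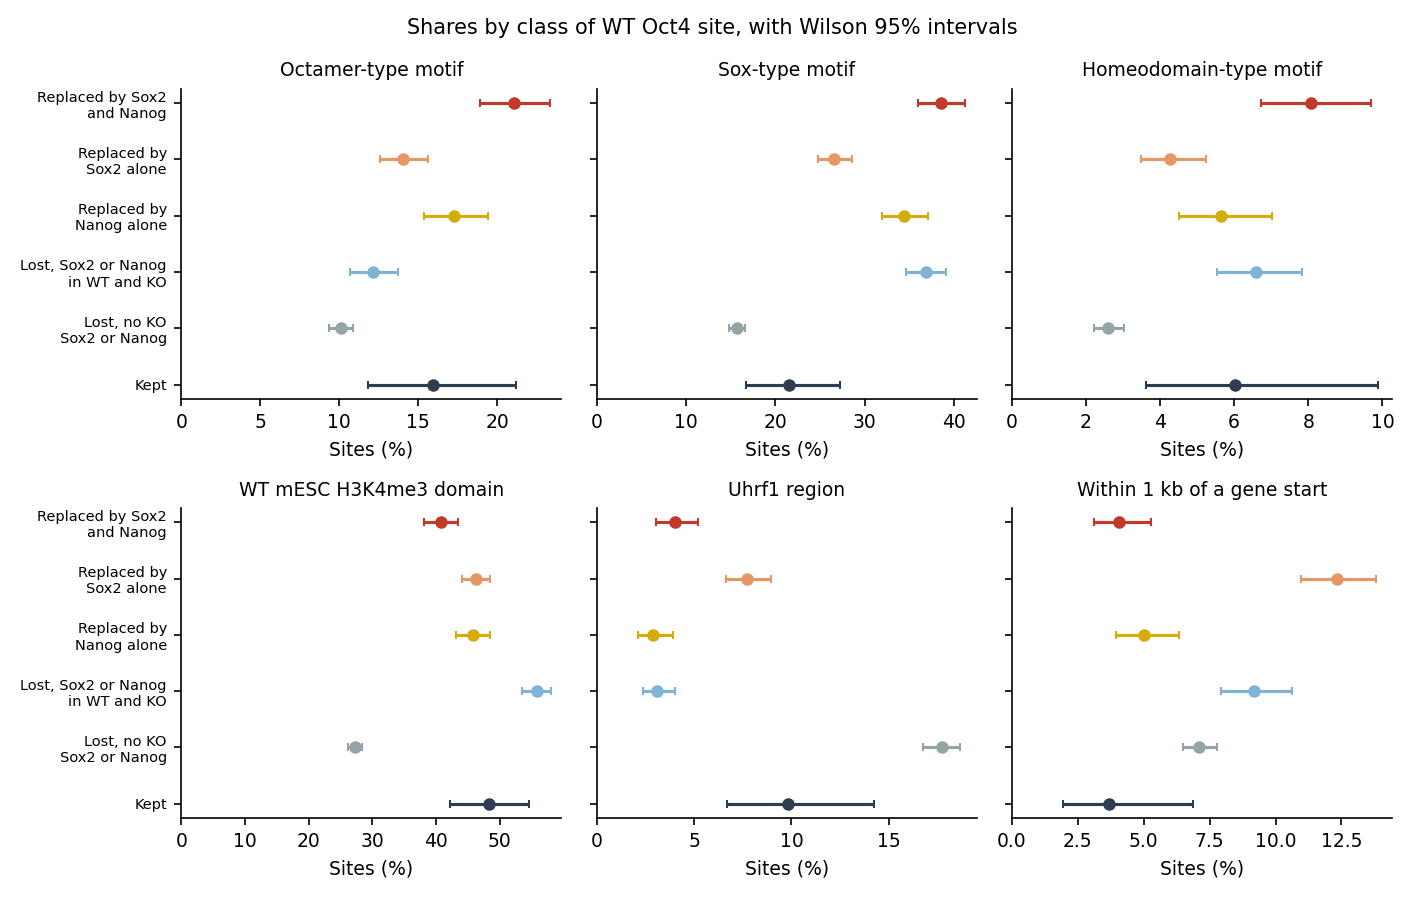
Share of sites in percent (horizontal axes differ between panels) with a motif, in a WT mESC H3K4me3 domain, in a Uhrf1 region or near a gene start, for 6 classes of WT Oct4 site. Points are shares and bars Wilson 95% intervals; the chosen sites, on top, hold the octamer-type motif at 21.1% and lie in Uhrf1 regions at 3.997%.

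To ask what chromatin the sites carried, they were placed in the deposited domains of each histone mark. In WT mESC, 531 of the 1301 lay in an H3K4me3 domain (40.8%, 38.2 to 43.5), where 38.0% of all WT Oct4 sites did. The difference from the other sites was 3.18 points (0.3999 to 6.02), but within groups of equal Oct4 height it was -0.835 points, with an interval that included 0 (-3.65 to 1.98). The 531 sites were spread over 501 separate domains. Sites replaced by Sox2 alone (46.3%) and by Nanog alone (45.8%) lay in H3K4me3 domains more often, and the differences of the chosen sites from them were -5.44 points (-8.86 to -1.996) and -5.01 points (-8.79 to -1.22). Among sites over 1 kb from a start, the interval of the difference from Sox2 alone included 0 (-1.65 points, -5.17 to 1.89). The difference from Nanog alone was then -5.15 points (-8.99 to -1.29).

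In KO mESC, 35.2% of the sites lay in an H3K4me3 domain (32.7 to 37.8), where 29.8% of all WT Oct4 sites did. The difference from the other sites was 6.02 points (3.33 to 8.78) and 3.05 points (0.308 to 5.79) within height groups. The chosen sites did not exceed those replaced by Sox2 alone (37.8%) or by Nanog alone (36.9%). Both intervals of these differences included 0 (-2.55 points, -5.86 to 0.808, and -1.75 points, -5.42 to 1.93). Domains of both genotypes covered 396 sites (30.4%), WT domains alone 135 (10.4%), KO domains alone 62 (4.77%) and neither 708 (54.4%). Of the sites marked in WT, 25.4% were outside every KO domain, against 27.9% over all WT Oct4 sites, and the interval of the difference from the other sites included 0 (-2.81 points, -6.58 to 1.28). Of the sites unmarked in WT, 8.05% lay in a KO domain, against 3.94% over all, a difference of 4.55 points (2.78 to 6.73) that was 3.44 points (1.44 to 5.45) within height groups.

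In WT mESC, compared with the other WT Oct4 sites together, H3K27me3 and H3K9me3 were less frequent at the chosen sites. H3K27me3 domains held 24.2% of them, against 30.9% of all WT Oct4 sites, a difference of -7.43 points (-9.83 to -4.88) from the other sites and -4.79 points (-7.29 to -2.29) within height groups. H3K9me3 domains held 36.5%, against 41.6%, a difference of -5.65 points (-8.37 to -2.85) and -3.52 points (-6.32 to -0.718) within height groups. Sites replaced by Sox2 alone or by Nanog alone were closer to the chosen ones, and all intervals included 0. For H3K27me3 they stood at 26.99% and 26.4%, with differences of -2.78 points (-5.77 to 0.269) and -2.19 points (-5.51 to 1.14). For H3K9me3 they stood at 36.9% and 38.3%, with differences of -0.409 points (-3.74 to 2.95) and -1.81 points (-5.50 to 1.90). In KO mESC the H3K27me3 share was 4.53%, against 4.33% of all sites, with 722 domains in that list and 8161 in the WT list. H3K9me3 went the other way in KO, with 56.6% of the sites against 53.2% of all, a difference of 3.83 points (0.977 to 6.65). Of the sites outside WT H3K9me3 domains 41.4% lay in a KO one, against 34.7% over all WT Oct4 sites, a difference of 7.53 points (4.03 to 11.1). Against sites replaced by Nanog alone, the intervals of both KO H3K9me3 differences included 0 (1.03 points, -2.76 to 4.83, and 2.66 points, -2.08 to 7.38). Against those replaced by Sox2 alone the differences were 4.13 points (0.668 to 7.57) and 4.04 points (-0.216 to 8.31). Lengths and numbers of domains differed between the lists, and their part in these shares was not tested.

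Uhrf1 regions, 10 kb windows enriched in WT mESC, held 52 of the sites (3.997%, 3.06 to 5.20), where they held 11.0% of all WT Oct4 sites. The difference from the other WT Oct4 sites was -7.83 points (-8.94 to -6.49), and -3.20 points (-4.37 to -2.04) within height groups. It was largest at short summits: in the shortest group 3.33% of chosen and 26.9% of other sites lay in a Uhrf1 region, and in the tallest 3.56% and 3.97%. Sites replaced by Sox2 alone lay in Uhrf1 regions more often (7.73%, difference -3.73 points, -5.28 to -2.11, and -2.14 points, -3.63 to -0.647, within height groups), while those replaced by Nanog alone did at 2.88% (difference 1.11 points, -0.292 to 2.55).

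In EBs the sites were compared with the other WT Oct4 sites week by week. In WT EBs the H3K4me3 share was 12.8% at week 1, 29.98% at week 2 and 34.6% at week 3, where all WT Oct4 sites gave 17.4%, 28.6% and 32.8%. The share in Uhrf1 KO EBs was 6.92%, 39.3% and 42.4%, where all sites gave 11.2%, 34.1% and 36.5%. Against the other WT Oct4 sites, the chosen ones were lower at week 1 in both genotypes, with differences of -5.12 points (-6.97 to -3.08) in WT and -4.77 points (-6.17 to -3.16) in KO. At weeks 2 and 3 they were higher in KO by 5.72 points (2.96 to 8.53) and 6.56 points (3.76 to 9.40), which became 1.84 (-0.948 to 4.63) and 2.42 points (-0.4003 to 5.25) within height groups. Sites replaced by Sox2 alone and by Nanog alone stood no lower in KO, at 41.03% and 43.6% at week 2 and 44.01% and 46.1% at week 3. At week 1 they stood above the chosen sites, at 23.3% and 16.7% in WT and 14.7% and 9.64% in KO. The number of H3K4me3 domains varied between 18672 and 39898 over these EB lists, and so levels were not compared between weeks.

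H3K27me3 in WT EBs covered 7.76%, 28.98% and 24.8% of the sites at weeks 1, 2 and 3, where all WT Oct4 sites gave 9.04%, 36.3% and 27.9%. In KO EBs it covered 9.07%, 19.4% and 13.9%, where all sites gave 10.3%, 18.6% and 16.5%. The widest gap to the other sites was in WT at week 2, at -8.14 points (-10.7 to -5.46), which was -4.44 points (-7.09 to -1.80) within height groups, and at week 2 in KO the interval included 0 (0.856 points, -1.32 to 3.20). In WT at week 2, sites replaced by Sox2 alone stood at 31.7% and by Nanog alone at 30.4%. Both intervals of the differences from them included 0 (-2.76 points, -5.91 to 0.451, and -1.45 points, -4.94 to 2.05). Over the 8 lists of stages and genotypes, 554 sites (42.6%) lay in no H3K4me3 domain, where 50.3% of all WT Oct4 sites did not, a difference of -8.58 points (-11.4 to -5.72) from the other sites and -2.38 (-5.22 to 0.456) within height groups. In an H3K4me3 domain every time lay 74 (5.69%), against 8.95% of all sites, a difference of -3.63 points (-4.89 to -2.15) and -3.03 (-4.42 to -1.65) within height groups. No H3K27me3 domain held 661 (50.8%), against 45.8% of all sites, a difference of 5.59 points (2.73 to 8.45) and 3.32 (0.425 to 6.22) within height groups. Sites replaced by Sox2 alone and by Nanog alone lay in no H3K4me3 domain at 41.1% and 38.3%. The differences of the chosen sites from them were 1.46 points (-1.96 to 4.89) and 4.27 points (0.508 to 8.01). For an H3K4me3 domain every time these classes stood above the chosen sites, at 12.7% and 7.89%. For no H3K27me3 domain they stood at 50.3% and 49.3%.

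**Figure D5:**
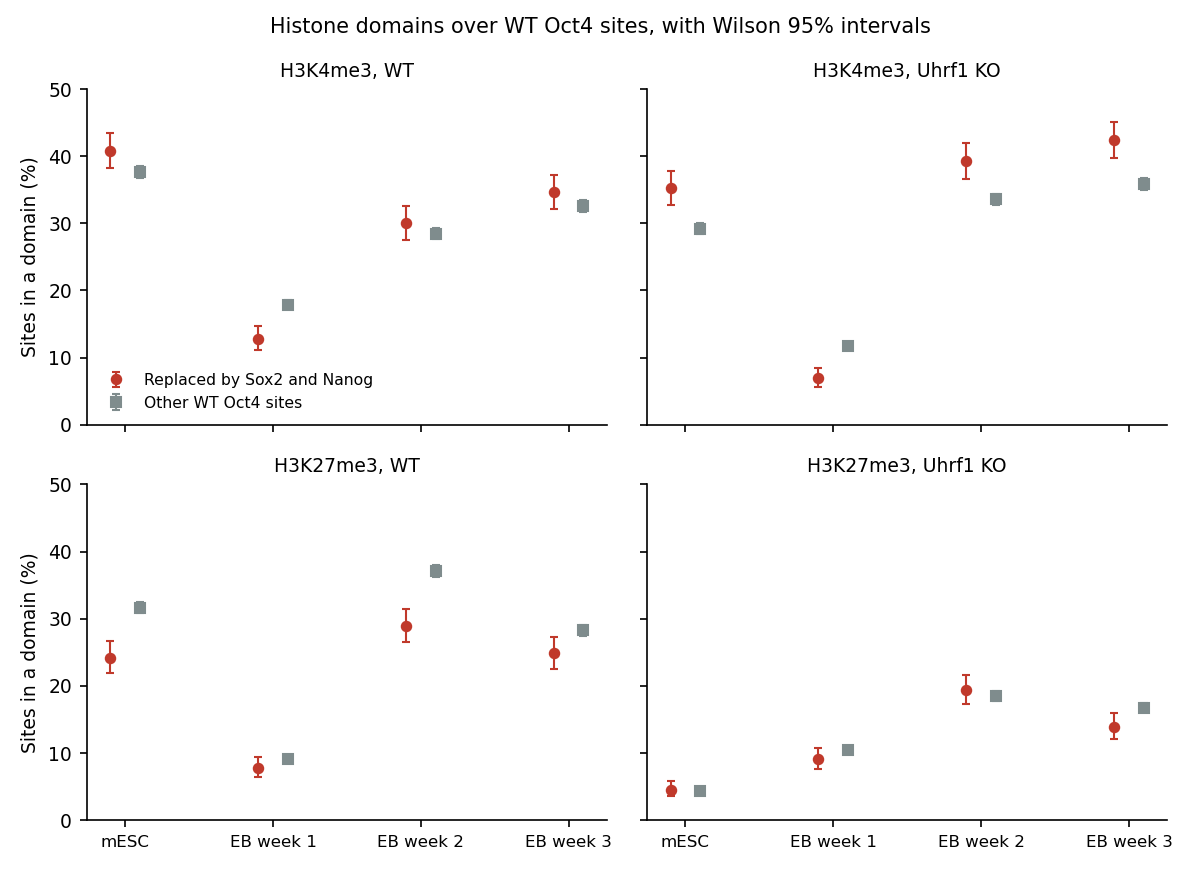
Share of sites in percent inside an H3K4me3 (top) or H3K27me3 (bottom) domain in WT (left) and Uhrf1 KO (right) mESC and EBs, for the chosen sites (circles) and the other WT Oct4 sites (squares), with Wilson 95% intervals. In KO mESC the chosen sites lie in H3K4me3 domains at 35.2% against 29.2% of the other sites, and in WT mESC they lie in H3K27me3 domains at 24.2% against 31.6%.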

How the data were processed

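ChIP-seq libraries of WT and Uhrf1 KO cells were grouped by genotype, stage and antibody as the labels give them, with 25 deposited lists of 33 samples, and the other 8 samples (inputs) were not used here. Per the labels and methods, the authors mapped reads to mm9 with Bowtie2 2.1.0, keeping 1 alignment per read, called factor summits with MACS and histone domains with RSEG, and chose Uhrf1 windows by fold over input. Deposited signal columns hold whole reads at a summit or the mean read count per bin of a domain, and whether they were scaled to mapped reads is not given for these columns in the sources used here. The deposited score of a domain was used only to filter. Scores and signals were not compared between libraries. Total mapped reads were not used here, though the study's own summary shows that they differed between libraries.

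Summits within 100 bp were taken as 1 site. Shares have Wilson and differences Newcombe 95% intervals. Differences within 5 equal groups of WT Oct4 height were weighted by the chosen sites, with a normal interval. Coordinates were checked against NCBIM37: 0 of 530 pairs of list and chromosome passed the chromosome end. Genes came from GENCODE M1, nearest by transcript start. Motifs were matched by exact letters. Python 3.11, numpy 2.4.6, pandas 2.3.3, scipy 1.17.1 and matplotlib 3.10.9 were used. On simulated data 0 of 2000 classes, 0 of 12000 overlap calls and 0 of 1000 planted motifs were wrong.

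The sites, the gene lists and the tests were chosen with earlier results of these data known. Sites were named as the 10 whose lowest height percentile was highest, those nearest to a core or naive pluripotency gene, genes nearest to at least 4 sites and the sites at the distance limit; sites near genes of the other lists were named after their values were seen. Some sites that meet this rule are counted but not reported by name here. Alternatives were other summit distances, shortened lists, taller summits, domains of higher score, wider overlap, other motif windows and promoters within 2 kb, and 4 were added after the data were seen.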

Additional observations from a re-analysis of the deposited data

How the results depend on the processing

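Of 37 alternatives, 27 kept their direction and lay within the interval of the reported value, or for a number of sites within 1.5 times of it. Some of these still moved: the H3K4me3 difference in WT mESC was 1.38 points (-1.23 to 4.05) with sites chosen at 200 bp and 1.63 (-0.886 to 4.27) with domains of higher score, both with intervals that included 0, and 5.35 away from promoters, a setting added later, while that of H3K9me3 was -3.52 within height groups. The number of chosen sites was 889 at a summit distance of 50 bp, 1478 at 200 bp and 1584 at 500 bp, but 214 with KO Sox2 and Nanog lists shortened to about the WT length (ties kept) and 801 with summits above the median height of their list. Within height groups the H3K4me3 difference in WT mESC changed sign, to -0.835 points, and those of H3K27me3 (-4.79), Uhrf1 regions (-3.20), promoter position (-2.44) and the octamer-type motif (5.78) shrank. Promoters within 2 kb gave -2.35 points, a motif window of 25 bp gave 5.24, and a composite with up to 2 letters different gave 6.78, a setting added later. The 2 kb promoter difference was -1.02 points within height groups, with an interval that included 0 (-2.69 to 0.640). Read totals were not used here, and the part of library depth in the lists was not tested. No paired analysis was possible because each group held 1 library and no replicate numbers were given.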
